A study of Mus musculus with 3 samples.

Results

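The genes described here are the semaphorins, ephrins, Slits and netrins and their plexin, neuropilin, Eph, Robo, Unc5 and Dcc receptors. They were chosen by gene symbol, with no measured value used: every protein-coding mouse gene whose symbol belongs to one of these families was taken. This gave 69 genes of 21887 protein-coding genes, of which 35 code for ligands (20 semaphorins, 8 ephrins, 3 Slits and 4 netrins) and 34 for receptors (9 plexins, 2 neuropilins, 14 Eph receptors, 4 Robo receptors, and 5 of the Unc5 and Dcc group). They lie on 19 chromosomes, and 32 of them are longer than 100 kb.

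The study mapped MEIS2, a TALE-class homeodomain transcription factor, in the lateral ganglionic eminence (LGE), the embryonic forebrain region that gives rise to striatal projection neurons. It used CUT&Tag, in which an antibody brings the Tn5 transposase to the bound protein so that the DNA beside it is cut and tagged. The 2 MEIS2 libraries came from wild-type CD1 embryos at E14.5 with a mouse polyclonal anti-MEIS2 antibody, and the single control library came from the same kind of tissue with no primary antibody. Each was made from 100000 cells and read as 150 bp pairs, and the labels do not say whether the libraries came from separate embryos or litters, so the spread between the 2 MEIS2 libraries may be technical.

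Guidance ligands and receptors steer growing axons and migrating neurons. Secreted semaphorins mostly repel through neuropilin and plexin complexes, ephrins on one cell bind Eph receptor kinases on the next and signal in both directions, Slits repel through Robo receptors, and netrins attract through Dcc or repel through Unc5 receptors. In the ventral forebrain, Slits, netrin-1 and ephrin-A5 are known for steering thalamocortical and corticofugal axons through the ganglionic eminences, and Sema3e with its receptor plexin-D1 is known for the wiring of striatal projection neurons.

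Each library has its own list of peaks, and a peak is a local excess of tags over the surrounding DNA of the same library. With repeated positions removed, the tags behind the 3 lists numbered 7618406 and 6559629 (MEIS2) and 6337375 (control), and the lists hold 78060, 82093 and 9869 peaks on the autosomes, X and Y. A replicate 1 peak was counted as reproducible when it shared 1 bp or more with a peak of replicate 2 and none with a no-antibody peak, which left 47809. Fold enrichment is the caller's ratio of tags stacked at the summit to those expected locally, given below for replicate 1 and then for replicate 2. It is scaled within each library, so a difference between the 2 values of a peak is not read as a change. A peak is not an expression level, so neither the activity of the genes nor the identity of the cells can be read from these lists. Gene-end peaks were listed at 10 of 16 LGE and striatal genes, 3 of 7 dorsal cortical genes, 1 of 4 genes of the medial ganglionic eminence and 4 of 7 vessel and microglia genes, beside 52.4% of all protein-coding genes, and lists of this size set no order among them. No statistical test was run, because the control is 1 library and genes are not replicates. Counts over the guidance genes are set beside the same counts over all protein-coding genes, and no difference between them, or between the families, was tested.

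MEIS2 peaks lay at the transcription start of most guidance genes. A RefSeq table of start sites on GRCm38.p6, the assembly that mm10 names, lists 59 of the 69 genes, and 51 of these (86.4%) had a reproducible peak with its summit within 1 kb of a listed start. Among all protein-coding genes with a listed start the share was 54.3%. Ligands and receptors had similar shares, 26 of 29 (89.7%) and 25 of 30 (83.3%). Sema3b, Sema3f, Sema6a, Efnb3, Slit1, Ntn1, Plxna1, Plxna4, Dcc and Unc5d are the 10 genes without a listed start in the table.

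The start peaks of the guidance genes, the strongest of each gene, were by their medians not higher than those of all genes. Their fold enrichments ran from 3.55 to 12.1 in replicate 1, with a median of 6.16, and from 4.06 to 9.0 in replicate 2, with a median of 6.26. Start peaks of all protein-coding genes, with every start peak counted and not only the strongest of each gene, had medians of 7.65 and 6.49. When reproducible peaks were ranked by the lower of their 2 fold enrichments, none of the 51 guidance start peaks was among the top 10%. Of the peaks at an end or start of any protein-coding gene, 0.934% were. The median distance from summit to start was 230 bp. Of the 51 summits, 37 lay downstream of the start and 14 upstream, and 38 of the peaks covered the start itself.

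A count that needs no start site, and so covers all 69 genes, takes a reproducible peak within 1 kb of either annotated end of the gene. This found 46 guidance genes (66.7%), against 52.4% of all protein-coding genes. Replicate 1 alone had a peak there in 52 guidance genes (background 60.5%) and replicate 2 alone in 50 (background 55.4%). Ligands had 26 of 35 and receptors 20 of 34. Peaks at the downstream end were rare, in 3 genes with a listed start (Efna2, Ntn5 and Epha1), so the gene-end count is mostly a count of start peaks. Together, 57 genes had a peak at an end or a listed start. The 12 without either were Sema3a, Sema3b, Sema4a, Sema6a, Efnb3, Slit1, Plxnb3, Nrp1, Epha3, Epha4, Robo4 and Dcc.

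Gene length moves the background. Of all protein-coding genes with a listed start, 43.7% of those up to 25 kb had a start peak, 69.3% of those from 25 to 100 kb and 75.5% of the longer ones. The guidance genes had 90.5%, 91.7% and 80.8% in the same classes. For gene ends the background was 44.8%, 63.3% and 65.6%, and the guidance genes had 16 of 23 (69.6%), 9 of 14 (64.3%) and 21 of 32 (65.6%). By the gene-end count, the shares of guidance genes and of all genes lay close together in the upper 2 classes and further apart in genes of up to 25 kb.

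**Figure D1:**
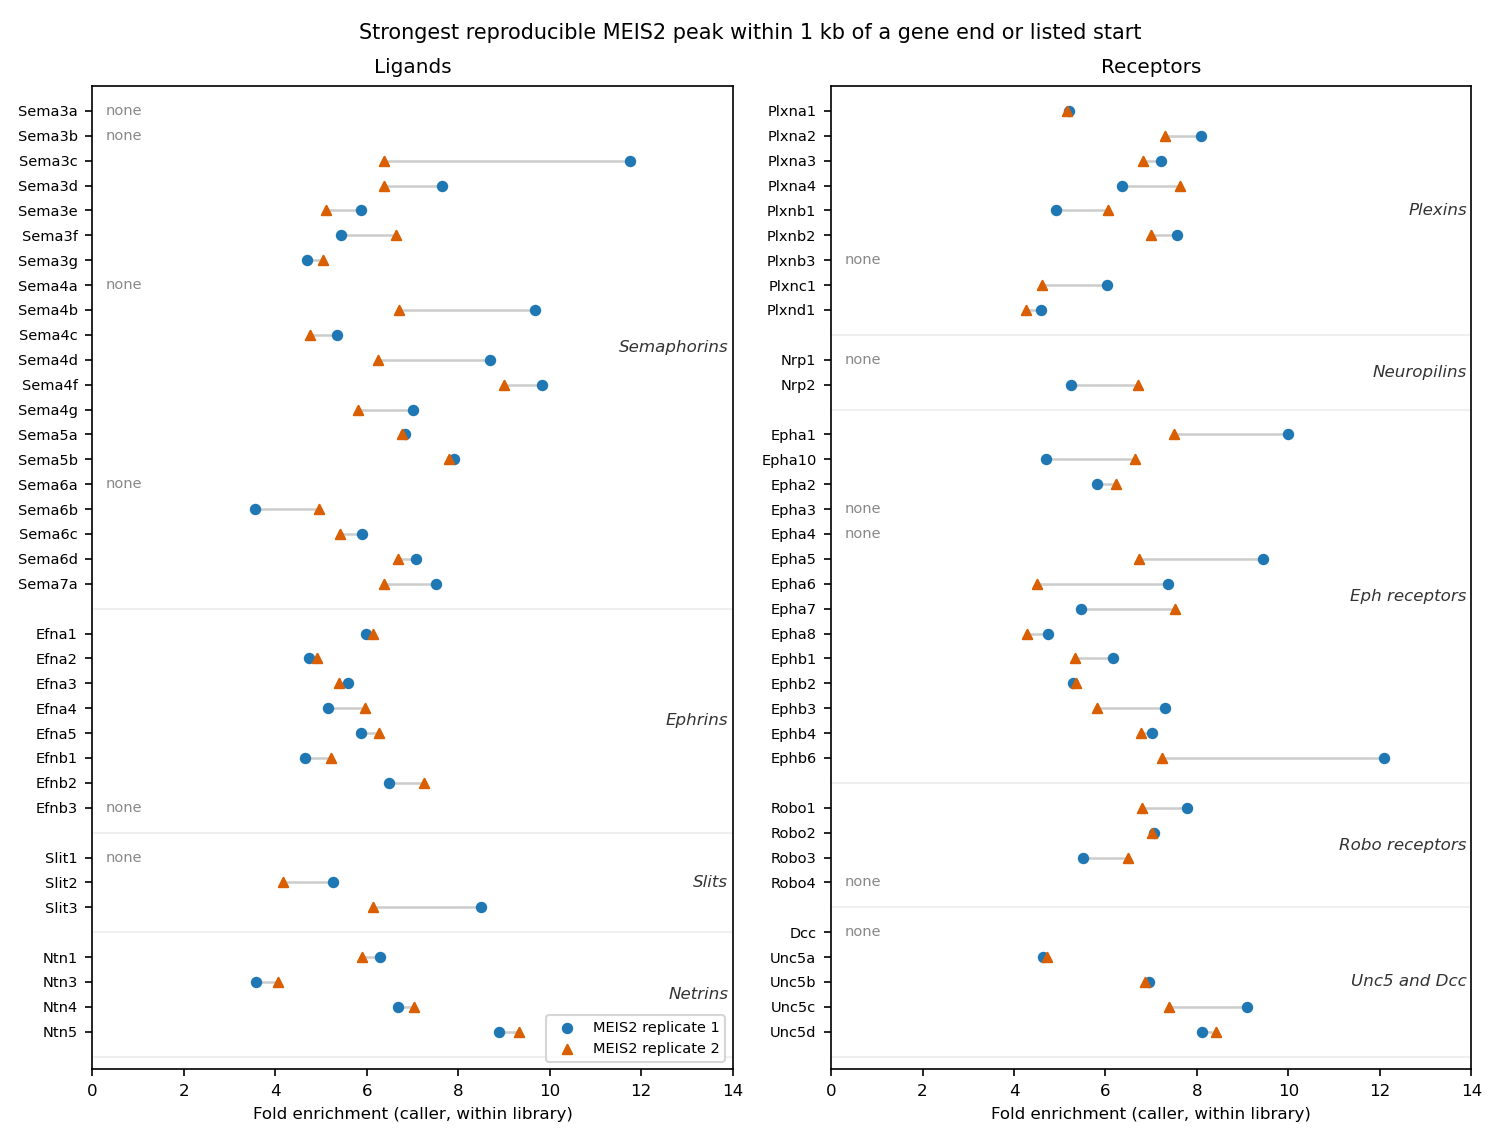
Fold enrichment (caller's ratio, horizontal axis) of the strongest reproducible MEIS2 peak within 1 kb of a gene end or listed start, for each ligand (left) and receptor (right), with a circle for replicate 1, a triangle for replicate 2 and a line joining them. The 57 genes with a peak spread between 3.55 and 12.1, and 12 genes are marked none.

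Among the ligands, semaphorins had a gene-end peak in 15 of 20 genes. By the lower of the replicate values, the strongest was at Sema4f, a transmembrane semaphorin, at chr6:82939303-82939750. It had fold enrichments of 9.84 and 9.0 and its summit 259 bp from the start. Sema5b and Sema5a, transmembrane semaphorins with thrombospondin repeats, followed with 7.90 and 7.79 (chr16:35541147-35542363) and with 6.83 and 6.77 (chr15:32244485-32246302). The secreted Sema3c had a start peak of 11.8 in replicate 1 and 6.38 in replicate 2. Sema4c, whose product binds plexin-B2, had no gene-end peak but had one near its listed start, at 5.34 and 4.75. Sema4d, whose product binds plexin-B1, had the reverse pattern: a peak of 8.70 and 6.24 at its outer annotated end and none within 1 kb of a listed start.

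Ephrins had a gene-end peak in 6 of 8 genes, and all 7 with a listed start had a start peak. Efnb2, a transmembrane ephrin, had the strongest, 6.48 and 7.25 at chr8:8660571-8661687. Efna5, the membrane-anchored ligand of several EphA receptors, had 5.87 and 6.26 at chr17:62881346-62881870, and Efna4 had 5.15 and 5.96. Efna1, Efna3 and Efna4 sit side by side on chromosome 3, so their windows share peaks, but the start peaks of the 3 genes are separate ones. Efnb3 lay just outside the 1 kb limit, with a peak of 5.03 and 4.05 whose summit was 1058 bp inside the gene.

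All 4 netrins and 1 of 3 Slits had a gene-end peak. Ntn5 had the highest replicate 2 value of any guidance gene, 9.32 with 8.90 in replicate 1, at chr7:45693897-45694434, but this peak is at its downstream end and is also within 1 kb of an end of the neighbouring gene Sec1. The Ntn5 start had a lower peak, 3.84 and 5.49. Ntn1, the netrin that attracts axons through Dcc, had 6.28 and 5.90 at chr11:68385915-68387347. Slit3 had a peak of 8.49 and 6.14 at its start, and Slit2 one of 5.25 and 4.18 at a listed start, with its summit 2094 bp from the annotated gene end.

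Among the receptors, the plexins divided by subfamily at their gene ends. All 4 plexin-A genes, the partners of neuropilins in class 3 semaphorin receptors, had a gene-end peak: Plxna2 with 8.10 and 7.30, Plxna3 with 7.21 and 6.82, Plxna4 with 6.36 and 7.63, and Plxna1 with 5.20 and 5.15. None of the 3 plexin-B genes had one. The division was not seen at the listed starts, where Plxnb1 (4.92 and 6.06) and Plxnb2 (7.56 and 6.99) both had a peak at a start inside the annotated gene. Plxnb3 had a peak there in replicate 1 alone, at 4.71. Nrp2, the neuropilin that binds Sema3f, had a start peak of 5.26 and 6.70.

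Eph receptors had a gene-end peak in 10 of 14 genes, 6 of 9 EphA and 4 of 5 EphB. Epha1 had the highest by the lower of the replicate values, 10.0 and 7.50 at chr6:42373041-42373334. Epha5 had 9.45 and 6.74, and Ephb4, known for its part in vessel development with ephrin-B2, had 7.02 and 6.79. Ephb6, which lacks kinase activity, had the highest replicate 1 value of any guidance start peak, 12.1, with 7.25 in replicate 2, at a start inside its annotated end.

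Robo receptors had a gene-end peak in 1 gene of 4, Robo3, which acts in commissural axon crossing, with 5.51 and 6.49. Robo1 and Robo2, the main Slit receptors of forebrain axons, had theirs at listed starts far inside the annotated gene, 7.77 and 6.81 at Robo1 and 7.06 and 7.01 at Robo2. The summit of the Robo1 start peak lay 384018 bp from the nearer annotated end. In the Unc5 and Dcc group, Unc5d had 8.10 and 8.41, Unc5c 9.10 and 7.38 and Unc5b 6.96 and 6.87 at a gene end. Unc5a had 4.64 and 4.73 at a listed start, and Dcc had no peak within 1 kb of its ends.

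Of the 8 genes with a listed start but no reproducible peak there, 6 had a replicate 1 peak within 1 kb of it and 1 had a replicate 2 peak. Nrp1, the neuropilin that binds Sema3a, had a peak in each replicate at its start, but the 2 did not overlap: 6.06 at chr8:128359587-128359802 in replicate 1 and 3.64 at chr8:128358847-128359080 in replicate 2. Epha4, a receptor of both ephrin classes, had a replicate 1 peak of 6.24 at chr1:77515097-77515457 and a replicate 2 peak of 4.65 at chr1:77516086-77516332, which do not overlap either. Sema3a and Robo4 had no peak near a listed start in either MEIS2 library. Robo4 is mainly an endothelial gene.

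The share of all protein-coding genes with a start peak rose with the CpG content of the start in each class, and that of guidance genes was lowest in the lowest class. The ratio of observed to expected CpG was taken over the 300 bases from 250 before to 50 after each listed start, with a gene's highest value over its starts. Of the 38 guidance genes with a ratio of at least 0.6, 37 had a start peak, and the exception was Epha3. In all protein-coding genes of that class the share was 85.9%. Of the 21 guidance genes under 0.6, 14 had a start peak, against 21.6% of all protein-coding genes. Within that lower class the guidance genes sat higher on the scale, with a median ratio of 0.47 against 0.23 for all genes. From 0.4 to 0.6, guidance genes had 11 of 14 (78.6%) and all genes 53.0%. From 0.2 to 0.4 the guidance genes had 2 of 2 and all genes 19.5%, and under 0.2 they had 1 of 5 and all genes 5.48%. Whether CpG content alone gives the higher share among guidance genes was not tested.

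**Figure D2:**
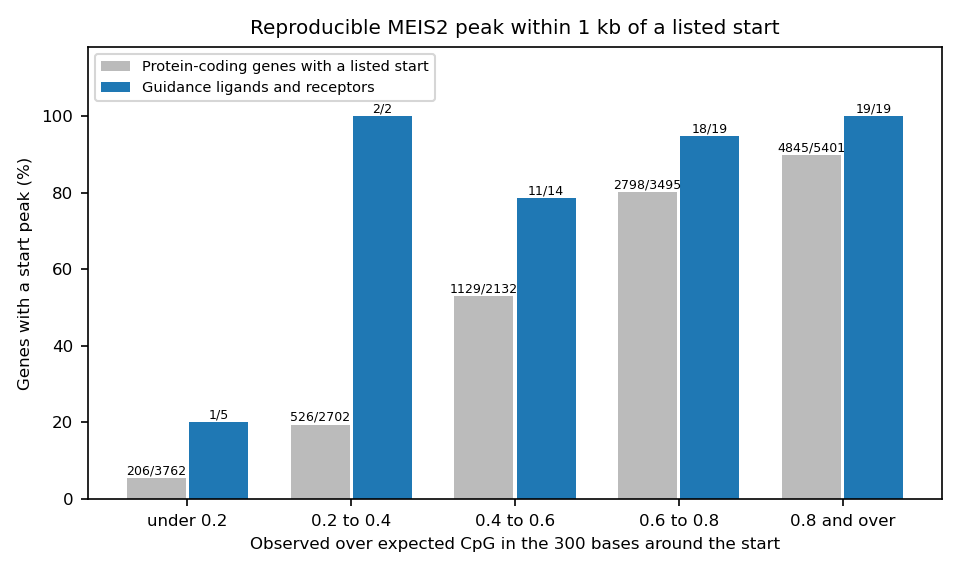
Share of genes with a reproducible MEIS2 peak within 1 kb of a listed start (vertical axis, percent) by observed over expected CpG of the 300 bases around it, for all protein-coding genes (grey) and the guidance genes (blue), with the number of genes over each bar. All 19 guidance genes at 0.8 and over had a start peak, against 89.7% of all genes there, and 1 of 5 under 0.2.

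Below are the 30 bases just before starts from the 2 ends of the CpG scale. They are printed 5′ to 3′ on the gene's strand with each CG in capitals. The starts were picked by their CpG ratio, so a difference in CG between the 2 sets was built in. Genes also go the other way: Ntn5 had a start peak at a ratio of 0.13 and Epha3 had none at 0.68. The first 4 lines are the guidance genes with the highest CpG ratio among those with a start peak, and the last 4 are the single starts with the lowest ratio, 1 per gene, among the 8 genes without. Sema4a is shown by the lowest of its listed starts, and by its highest it falls in the class from 0.4 to 0.6. The sequences are from RefSeq, GRCm38.p6.
Efna5: tgCGagtttgtcccccCGccccagccactg
Epha8: CGgctgagcCGCGtgtgCGcCGgcCGgggt
Efna3: ttcctcCGgtgtgtggCGCGgCGgctCGgt
Epha5: tCGggaggctCGgggagaCGctggagctcc
Sema4d: gtcacagggtgtgtggctcttggctttggt
Robo4: aaagctgcttccctactgggacagagtctc
Plxnb3: acagccatcttgtgccCGtCGccactgccc
Sema4a: cccctgcctggtacagactctgctggaatt
The 30 bases of Epha8 (chr4:136956817-136956846, minus strand) hold 6 CG pairs and those of Efna3 (chr3:89321769-89321798, minus strand) hold 5. Efna5 (chr17:62881318-62881347, minus strand) has 2 in this stretch but 38 in its 300 bases, and Epha5 (chr5:84417383-84417412, minus strand) has 3 and 30. Sema4d (chr13:51756684-51756713, minus strand), Robo4 (chr9:37401942-37401971, plus strand) and Sema4a (chr3:88461183-88461212, minus strand) have none. Plxnb3 (chrX:73757073-73757102, plus strand) has 2 here and 4 in all 300 bases.

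The sequence TGACAG, the core of the motif that MEIS proteins are known to bind, was not more frequent at the starts with a peak. Searched on both strands, where it reads CTGTCA on the other, it was found in 10.7% of the 56 guidance starts with a peak and 36.8% of the 19 without. In all protein-coding genes the shares were 15.3% with a peak, 22.4% without and 18.7% of the 21263 starts together. Starts of the same gene were counted separately. The 7 matching guidance starts without a peak belong to Sema4d, Robo2, Sema4a and Sema6c alone. Of these genes, Robo2 and Sema6c had a peak at another listed start. TGATTG, a core bound by PBX partners, was found in 10.7% and 10.5% of the guidance starts, and TAATTA, a homeodomain core, in 3.57% and 5.26%. A match is a description of letters and not a binding site, and the window covers 300 bases of peaks that are often longer.

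Within the printed promoter windows, 5 TGACAG matches in 4 guidance genes lay inside a reproducible start peak. They are shown because they are the places where the letters and the peak coincide, as 30 bases on the gene's strand, 5′ to 3′, with the match in capitals (RefSeq, GRCm38.p6).
Plxna2: gcccttgactacTGACAGtgtctggtggtc
Ntn4: tgcaccgcccggCTGTCAagcgcggggggc
Efnb2 near: tttatagtgctcTGACAGcgcgcccggcgc
Efnb2 far: ggcggggctcacCTGTCAggggcgccctac
Efna3: gggcgtgcgcggCTGTCAgtgtgcgtgtgt
The Plxna2 match (chr1:194619622-194619651, plus strand) begins 195 bases before the start and lies 801 bp from the summit of a peak with 8.10 and 7.30. At Ntn4 (chr10:93640918-93640947, plus strand) it begins 119 bases before the start and 200 bp from the summit, in a peak of 6.67 and 7.03. The 2 Efnb2 matches (chr8:8661243-8661272 and chr8:8661389-8661418, minus strand) begin 18 and 164 bases before the start, 530 and 676 bp from the summit. The Efna3 match (chr3:89321963-89321992, minus strand) begins 212 bases before the start and is the closest to a summit, at 72 bp.

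Looking beyond the starts, 68 of the 69 genes (98.6%) had a reproducible peak in the gene or within 50 kb of it, against 92.8% of all protein-coding genes. Longer genes have longer windows. Up to 25 kb the shares were 100% and 89.8%, from 25 to 100 kb 100% and 96.7%, and above 100 kb 96.9% and 99.1%. The windows of the 69 genes held 401 different peaks, 0.839% of all reproducible peaks, of which 14 fell in the windows of more than 1 guidance gene. The exception was Epha4, where replicate 1 listed 1 peak and replicate 2 listed 3, none overlapping.

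Because windows grow with the gene, the peaks were counted per 100 kb of window. The guidance genes had a median of 3.17 peaks per 100 kb and all protein-coding genes 2.70. Ligands had 3.91 and receptors 2.42. Ligand genes are shorter, with a median length of 29.0 kb against 92.2 kb, and density falls with length in all genes. Among genes up to 25 kb, ligands had 7.65, receptors 3.93 and all protein-coding genes 2.97. Between 25 and 100 kb the medians were 4.79, 3.56 and 2.55, and above 100 kb they were 1.21, 1.22 and 1.57. The groups are small, with 15 ligands and 8 receptors up to 25 kb, 5 and 9 from 25 to 100 kb, and 15 and 17 above. Efna1, Efna3 and Efna4, all in the shortest class, share peaks. In the middle class the order of ligands and receptors turns with the count used: replicate 1 peaks alone gave 7.87 and 8.88, and distal peaks, those over 1 kb from every gene end, gave 2.15 and 2.49.

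**Figure D3:**
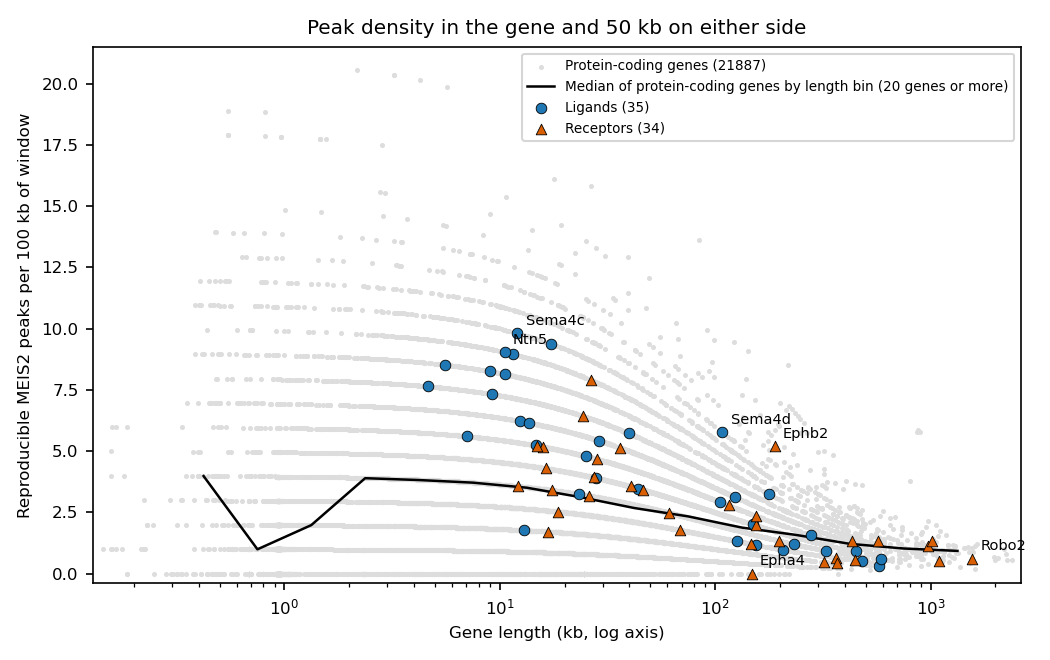
Reproducible MEIS2 peaks per 100 kb of window (vertical axis) against gene length (kb, log axis) for protein-coding genes (grey), ligands (blue circles) and receptors (orange triangles), with the black line giving the median of protein-coding genes by length. Short ligands such as Sema4c, at 9.82, lie above the line, most guidance genes of over 100 kb lie near or below it, and Epha4 is at 0.

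By family the median density was 6.46 per 100 kb for ephrins, 5.88 for netrins, 4.35 for semaphorins, 3.42 for plexins, 2.44 for Eph receptors, 2.37 for Robo receptors, 2.00 for neuropilins, 1.34 for the Unc5 and Dcc group and 0.94 for Slits. Neighbours in this order overlap widely. The families also differ in gene length. Their median lengths, in the same order, were 9.88, 57.7, 34.4, 40.5, 92.1, 519, 131, 369 and 326 kb. Whether the families differ beyond length was not tested. For ephrins, peaks shared by the windows of Efna1, Efna3 and Efna4 were counted for each of these genes. The same holds for Robo3 and Robo4, whose windows hold the same peaks. Semaphorins alone ran from 0.30 at Sema6d to 9.82 at Sema4c, and Eph receptors from 0 at Epha4 to 6.43 at Ephb4.

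The densest windows belong to short genes in gene-rich places. Sema4c, 12.1 kb long, had 11 peaks, and Sema6b, a transmembrane semaphorin of 17.3 kb, also had 11. Sema3b, a secreted semaphorin, had 10 peaks (8.96 per 100 kb), although none lay at its own ends. Ntn5 had 10 (9.05) and Ntn3 had 9 (8.53). Among ephrins, Efna3 had 9 (8.25), Efna2 9 (8.14) and Efna4 8 (7.65), and the windows of Efna3 and Efna4 share most of their peaks. Among receptors, Plxnb2 had 10 (7.91), Ephb4 8 (6.43) and Plxnb3 6 (5.17). Many of these peaks sit at other genes: 3 of 11 at Sema4c, 3 of 11 at Sema6b, 4 of 10 at Sema3b and 5 of 9 at Ntn3 were within 1 kb of an end of another protein-coding gene. Over all guidance windows this held for 71 of the 201 pairs of a gene and a peak outside it. Which gene such a peak serves cannot be read from its position.

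The largest numbers of peaks were in long genes. Ephb2, a receptor of B-type ephrins (chr4:136647536-136836326), had 15, 9 of them inside the gene away from its ends. Those 9 were of modest height, with replicate 1 values from 2.77 to 7.08. Robo1 (chr16:72027518-73047491) also had 15, 13 inside, but these reached 18.8 and 17.4 at chr16:72898830-72899140. Sema4d (chr13:51685529-51793678) had 12. The highest of them by the lower of the replicate values had 12.4 and 10.7, outside the gene at chr13:51637952-51638635. Another outside it had 12.7 and 7.67. Epha6 (chr16:59641433-60610911) had 12, and Robo2, at 1555 kb the longest of the guidance genes, had 10. Unc5d had 9, Ntn1 9 and Nrp2 6. Among Slits and Robo receptors, the densest were Robo4 with 3.57 per 100 kb, Robo3 with 3.41 and Slit1 with 2.00. Robo3 and Robo4 are neighbours, and their windows hold the same 4 peaks. None of these lies inside Robo4 or at its ends, and one is the start peak of Robo3.

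By fold enrichment, the strongest peaks of the guidance genes mostly lay inside long genes, far from their starts. Of the 401 peaks, 27 were in the top 10% of reproducible peaks by the lower fold enrichment. Inside a guidance gene and away from ends and starts there were 22 of 148 peaks (14.9%), outside the genes 5 of 183 (2.73%), and at ends or starts 0 of 70. For the same 3 places over all protein-coding genes the shares were 9.69%, 15.5% and 0.934%. All 22 internal ones were in genes of over 100 kb, where they made up 20.2% of 109 peaks in 14 genes, and for all protein-coding genes of that length the share was 14.6%. In guidance genes of up to 100 kb it was 0 of 39.

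The first by rank lay in Sema3d, a secreted semaphorin, at chr5:12548609-12549114, with 21.6 and 21.1 and with 76 and 72 tags stacked at the summit. It is 166 kb from the start, whose own peak had 7.64 and 6.38. Next came a peak in Sema6a, a transmembrane semaphorin that binds plexin-A receptors, with 18.9 and 19.1, and the Robo1 peak given above. Sema5a held one of 19.3 and 17.1 at chr15:32395498-32396055, 151 kb from its start. Efna5 held one of 16.4 and 17.8 at chr17:62737437-62737752, 144 kb from its start, and had a further one of 13.5 and 14.2 outside the gene. In Sema3d, Robo1, Sema5a and Efna5 the fold enrichment of the internal peak was higher than that of the start peak in both replicates. Tags stacked at the summit did not follow at Efna5 in replicate 1. They were 27 and 30 at its internal peak and 28 and 23 at its start peak.

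Among receptor genes, only Unc5d, Robo1, Robo2 and Epha6 had more than 1 such peak, and all of them are longer than 100 kb. Unc5d, a netrin receptor, had 3 inside and 1 outside, the highest at chr8:28866924-28867512 with 19.7 and 15.7. Robo2 had 3, of 16.0 and 15.5, 15.9 and 14.8, and 13.6 and 16.0, and Epha6 had 4, the highest in replicate 1 being 21.8 with 14.3 in replicate 2. Nrp2 had one outside the gene, 25.9 kb from its start, at chr1:62677239-62677548, with 16.3 and 20.5. Single ones were listed in Epha3 (16.5 and 12.1), Epha5 (12.9 and 11.5), Plxnc1 (11.2 and 16.5) and Dcc (17.4 and 11.5).

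**Figure D4:**
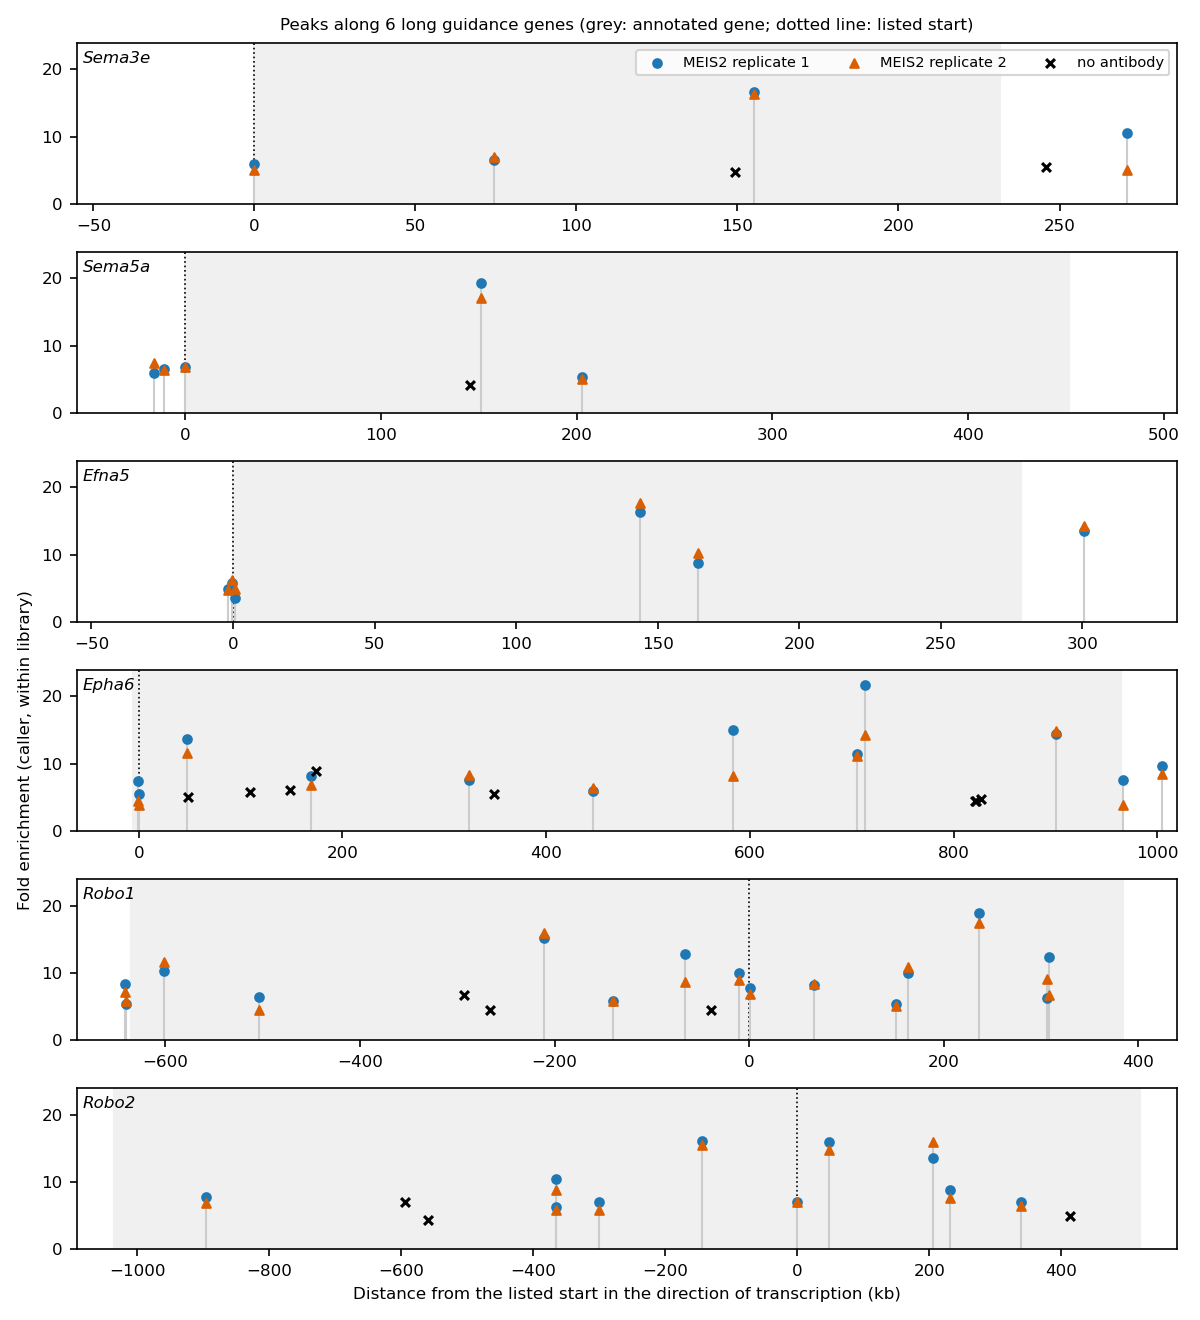
Peaks along 6 long guidance genes, by distance from the listed start in the direction of transcription (kb) and fold enrichment (caller's ratio), with circles for MEIS2 replicate 1 and triangles for replicate 2 at each reproducible peak, crosses for no-antibody peaks, grey for the annotated gene and a dotted line at a listed start that has a MEIS2 peak. The highest peaks, such as 16.7 and 16.3 in Sema3e and 18.8 and 17.4 in Robo1, lie away from the start.

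The no-antibody library listed 45 peaks in the windows of 20 guidance genes (29.0%, against 26.6% of all protein-coding genes), and none within 1 kb of a guidance gene end. Such gene-end peaks were rare in general, at 59 of the 21887 protein-coding genes. Of the 20 genes, 19 are longer than 100 kb, the other being Epha1. Above 100 kb the window shares were 59.4% of guidance genes and 53.2% of all protein-coding genes. From 25 to 100 kb they were 0% and 26.5%, and up to 25 kb 4.35% and 21.7%. Epha6 had 8, Epha3 and Dcc 4 each, Sema3d, Robo1 and Robo2 3 each, Sema3c, Sema3e, Sema6d, Slit3, Unc5c and Unc5d 2 each, and Sema3a, Sema5a, Sema6a, Plxna2, Epha1, Epha5, Epha7 and Ephb1 1 each. Their fold enrichment in that library went up to 8.99, in Epha6. Of the 45, 23 overlapped a peak in both MEIS2 lists and 14 in neither. MEIS2 peaks that overlap one were already left out of the counts above.

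The median distance of the 27 strongest peaks to the nearest no-antibody peak was 116 kb, shorter than the 224 kb of all 401 peaks in the windows, and 4 were within 10 kb: that of Sema5a at 5.56 kb, that of Sema3e at 5.74 kb, the outer one of Unc5d at 5.16 kb and one of Epha6 at 1.82 kb. The no-antibody peak beside the Sema5a peak had a fold enrichment of 4.12 and the one beside the Sema3e peak 4.80. Since the control holds no antibody at all, it cannot show where an antibody binds something other than MEIS2.

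The best-known ligand and receptor pairs differed in where their peaks lay. Sema3a, the best-known secreted repellent of the family, had 3 peaks in a window of a gene of 479 kb: 5.88 and 5.74 outside it, 8.23 and 5.57 inside, and 7.64 and 11.5 inside, the last with its summit 2282 bp from the listed start. Its receptor Nrp1 also had 3: 5.65 and 5.46 with the summit 1248 bp beyond the gene end, 9.41 and 6.38 inside, and 10.6 and 9.56 outside. Neither gene had a reproducible peak within 1 kb of a start.

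Sema3e had 4 peaks: 5.88 and 5.10 at its start, 6.47 and 7.01 inside, 16.7 and 16.3 inside at chr5:14179995-14180627, and 10.6 and 5.10 outside. Plxnd1, its receptor, had 5, none above 7.06 in replicate 1 or 4.50 in replicate 2, including a start peak of 4.60 and 4.25. The ligand gene held a peak of the top class and the receptor gene did not. The 2 genes differ in length, 231 kb for Sema3e and 40.5 kb for Plxnd1. No guidance gene of up to 100 kb held a peak of that class inside it. Whether the contrast goes beyond length was not tested.

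Slit1 had 5 peaks, all inside the gene, the highest 9.40 and 9.25 at chr19:41613551-41613807. Robo1, its receptor, had the 15 described above. Ntn1 had 9, the highest 10.7 and 12.1 inside the gene at chr11:68377769-68378079. Dcc, the receptor through which netrin-1 attracts, had 6 in a gene of 1098 kb, all inside and between 5.58 and 17.4 in replicate 1.

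Efna5 had 6 peaks and Efnb3 had 6, while Epha4, which binds both, had none that was reproducible. The Efnb3 peaks ran from 4.59 to 6.54 in replicate 1 and from 3.56 to 6.87 in replicate 2, and those of Efna5 from 3.63 to 16.4 and from 4.69 to 17.8.

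Partner shares of the replicates were lower in the guidance windows for replicate 1 and higher for replicate 2. Of 702 replicate 1 peaks in the windows, 60.3% had a replicate 2 partner, against 67.0% of all replicate 1 peaks, and of 645 replicate 2 peaks 67.4% had one, against 64.7%. Reproducible peaks in the windows had median fold enrichments of 6.06 and 5.74, lower than the 7.26 and 6.38 of all reproducible peaks.

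Other surface and secreted guidance genes, taken from a list of names and among them contactins and L1-family adhesion molecules, had a gene-end peak in 20 of 28 genes, beside the 52.4% background, with a median of 1.32 peaks per 100 kb. Of families with a like build, Wnt ligands and Frizzled receptors had 23 of 29 with a median of 3.82, and cadherins, which are long, 10 of 23 with a median of 1.56. The guidance ligands and receptors stood at 46 of 69 and 3.17. By listed starts the other surface and secreted guidance genes had 12 of 24 (50.0%) and cadherins 6 of 13 (46.2%), beside 54.3% of all protein-coding genes. Wnt and Frizzled genes had 18 of 21 (85.7%) and the guidance ligands and receptors 51 of 59 (86.4%). Nothing in these counts sets the guidance ligands and receptors apart from Wnt and Frizzled genes.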

How the data were processed

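The 2 MEIS2 libraries and the no-antibody library were grouped by their antibody labels. The build is mm10 and the tools are Bowtie2 2.3.4, Picard, Trimmomatic and MACS2 2.1.4, per the submitters' processing notes. Per the file headers, the authors called peaks in each library separately with MACS 2.2.7.1, without a control file, at a q cutoff of 0.05, keeping 1 tag per position and not using read pairs. Their signal column, as deposited, is the unscaled pileup at the summit. Fold enrichment, as deposited, is a ratio of that pileup to the local expectation. Significance was deposited by the authors as −log10 p-value and as −log10 q-value of each peak within its own library. The headers count 74259592, 79760948 and 72763762 tags before repeated positions were dropped, and precision is set by the tags kept.

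Peaks were assigned by summit to genes of a RefSeq table (GRCm38.p6) with Python 3.11.15, numpy 2.4.6 and pandas 2.3.3, and drawn with matplotlib 3.10.9. That table has no strand or exons, so a peak inside a gene is not placed in an exon, intron or UTR. Start and strand came from the promoter table, which matched 59 of 69 genes. Peaks on other sequences (315, 323 and 69) were left out. Sequence motifs inside peaks away from starts were not analysed here. The code was tested on simulated peaks with known answers.

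The genes were taken by symbol alone, and no measured value decided which were included. That rule, the lists and the settings were nonetheless chosen with earlier results of these data known. The text names, in each family, up to 3 genes by height of the gene-end peak, by number of peaks and by density, every gene without a gene-end peak or with a no-antibody peak, and known ligand and receptor pairs. The count at listed starts, the CpG classes, the sequences before the start, the top 10% class and the other genes named were picked once their values were known. Other settings tried were reciprocal overlap of 50%, a −log10 q floor of 5, no-antibody overlaps kept, each MEIS2 replicate left out, other distances and windows, and distal peaks only. A further list of guidance genes is not reported here.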

Additional observations from a re-analysis of the deposited data

How the results depend on the processing

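Of 77 values under other settings, 58 moved by at most 1.5 times (counts) or by less than 1 SD of the values from the 2 replicates alone (medians), and 19 moved by more. This SD rests on 2 values and was 0.640 for all 69 genes, 0.0416 for ligands and 0.957 for receptors. The limit is therefore much tighter for ligands, and the numbers of moved medians do not compare their stability with that of receptors. The count of guidance genes with a gene-end peak stayed within that limit, from 34 with a 500 bp end (49.3%, all protein-coding genes 43.2%) to 60 with a 2.5 kb end (87.0%, all 60.7%), and 50 to 52 with a replicate left out. The 401 peaks in the windows became 238 at −log10 q of at least 5 and 616 to 678 with a replicate left out. The median per 100 kb over all 69 genes, 3.17, became 2.16 with 50% reciprocal overlap, 1.57 at −log10 q of at least 5, 1.76 with distal peaks only and 4.86 to 5.77 with a replicate left out. For ligands, 3.91 became 3.47, 1.64, 2.16 and 6.20 to 6.26 under the same settings, and 4.25 with a window of 25 kb and 3.07 with one of 100 kb. For receptors, 2.42 became 1.25 at −log10 q of at least 5 and 3.60 to 4.95 with a replicate left out. It became 1.75 with 50% reciprocal overlap and 1.49 with distal peaks only, both within the wider limit for receptors. Genes with a no-antibody peak fell from 20 to 10 when only those overlapping no MEIS2 peak were counted. Fewer peaks enter under the stricter settings by construction. No paired analysis was possible because the control is 1 library and the peak lists give no test. A gene without a reproducible peak can still have peaks in single replicates that do not overlap, as Epha4 does, and whether depth is the cause was not tested.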
